A study of Homo sapiens with 12 samples.

Results

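Collagens outside the classical fibril-forming and collagen IV groups were examined in 3 human renal cell carcinoma lines after miR-29 activity was added or blocked. The 10 genes, COL6A1, COL6A2, COL6A3, COL7A1, COL8A1, COL12A1, COL15A1, COL16A1, COL18A1 and COL27A1, were found by symbol among the 58051 genes counted, and all 10 were present in every count table. RNA was sequenced from 12 libraries. In 786-O cells, 1 library came from cells given a miR-29 mimic, which is a synthetic duplex that acts as the mature miRNA, and 1 from cells given a control mimic. In A-498 cells, 2 libraries with the miR-29 mimic were compared with 2 with the control mimic. In ACHN cells, 3 libraries with a miR-29 inhibitor, an oligonucleotide that blocks the miRNA, were compared with 3 with a control inhibitor. Cells of all groups were transiently transfected at 10 nM and RNA was extracted after 48 h. Each line is a single established line, no group was left untransfected, and per the study's methods the replicates were biological, with 2 further A-498 libraries set aside by the study as possibly mislabelled.

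Collagens are secreted proteins of 3 chains wound into a triple helix, and they are known for giving the extracellular matrix its strength. The collagens described here do not build the main fibrils of the matrix. COL6A1, COL6A2 and COL6A3 encode the alpha chains that assemble together into the beaded microfibrils of collagen VI. COL7A1 encodes the chain of the anchoring fibrils that fasten epithelial basement membrane to the stroma. COL8A1 encodes a short-chain collagen that forms hexagonal networks. COL12A1 and COL16A1 encode FACIT collagens, which attach to the surface of fibrils. COL15A1 and COL18A1 encode the multiplexins of basement membranes, and the C-terminal part of the COL18A1 protein is released as endostatin. COL27A1 encodes a chain of the fibrillar class by its structure and is placed here as a minor collagen. Mature miRNAs guide silencing complexes to mRNAs that pair with their seed, and the miR-29 family is known for acting on mRNAs of matrix proteins.

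The 3 mature miR-29 sequences are shown because their common seed, nucleotides 2 to 8 in capitals, defines the matches searched in the collagen transcripts. They were taken from RefSeq (GRCh38.p14), and the labels call the transfected agents only a miR-29 mimic and a miR-29 inhibitor.
hsa-miR-29a-3p: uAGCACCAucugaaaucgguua
hsa-miR-29b-3p: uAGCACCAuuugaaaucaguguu
hsa-miR-29c-3p: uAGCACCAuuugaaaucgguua

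Matches were searched on the transcript strand as TGGTGCTA (an 8mer), as TGGTGCT not followed by A (a 7mer-m8) and as GGTGCTA not preceded by T (a 7mer-A1), in GENCODE v44 transcripts on GRCh38. Positions count nucleotides from the start of the 3′ UTR. The matches in the Ensembl canonical transcripts are shown with their flanks, because members with and without them are compared below, and the capitals mark the match.
COL6A1, 7mer-A1, chr21:46004799-46004805, plus strand: tcgagattaacGGTGCTAaccc
COL6A2, 8mer at 50, chr21:46132602-46132609, plus strand: caccccgtccaTGGTGCTAagcg
COL6A3, 8mer at 166, chr2:237324601-237324608, minus strand: acctatcagtaTGGTGCTAatgt
COL7A1, 8mer at 77, chr3:48564322-48564329, minus strand: gtccctcccctTGGTGCTAgagg
COL7A1, 7mer-m8 at 290, chr3:48564110-48564116, minus strand: ctgtgatgacaTGGTGCTgatt
COL8A1, 8mer at 2624, chr3:99798760-99798767, plus strand: gcattctacaaTGGTGCTAatct
COL15A1, 8mer at 211, chr9:99070097-99070104, plus strand: gatccatatatTGGTGCTAgatt
COL16A1, 7mer-m8 at 181, chr1:31652464-31652470, minus strand: gtgggttcctcTGGTGCTgcag
COL27A1, 7mer-m8 at 605, chr9:114311300-114311306, plus strand: tgtgaaatcgcTGGTGCTcaca
COL27A1, 7mer-A1 at 681, chr9:114311376-114311382, plus strand: aagattctgaaGGTGCTAccat

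**Figure D1:**
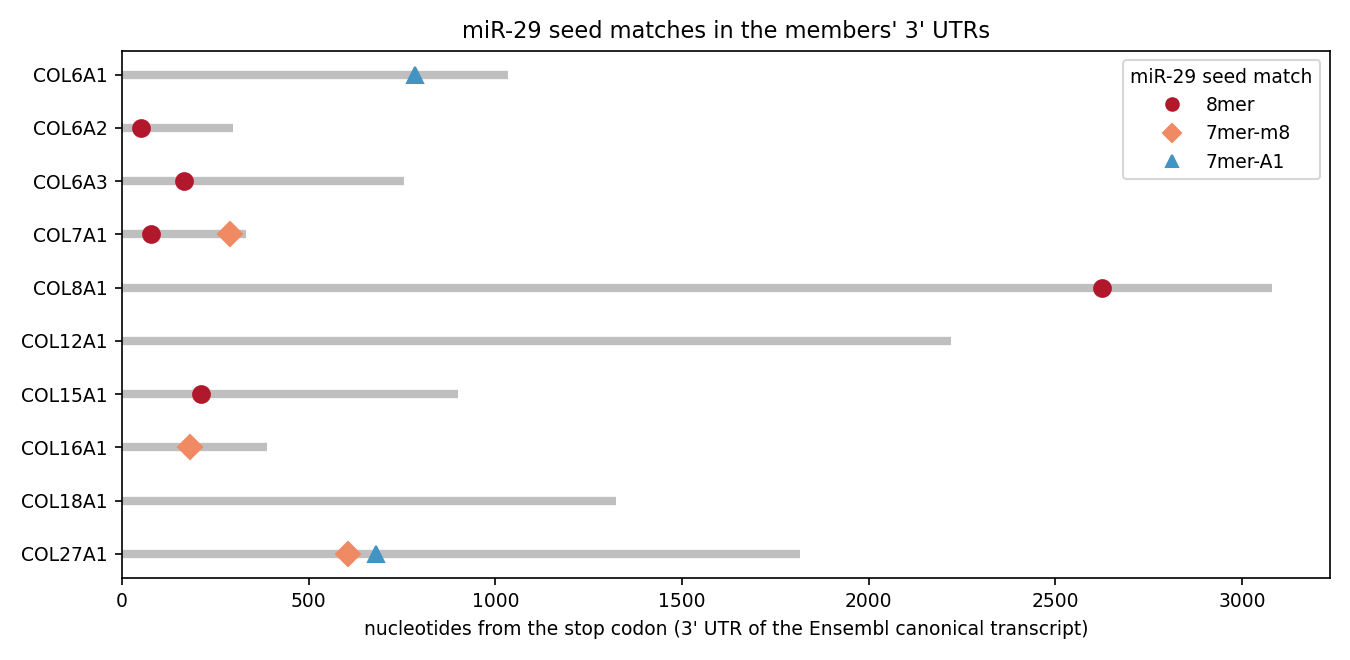
Positions of miR-29 seed matches in the 3′ UTR of the Ensembl canonical transcript of each collagen gene, in nucleotides from the stop codon. Grey bars are the 3′ UTRs drawn to scale and the symbols mark the 3 kinds of match. COL12A1 and COL18A1 hold none, while COL7A1 and COL27A1 hold 2 each.

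Of the 10 genes, 7 held a match to nucleotides 2 to 8 in the 3′ UTR of at least 1 annotated isoform, where 16.5% of protein-coding genes did so. In the transcript with the longest 3′ UTR this was 6 of 10 against 15.1% of 19043 genes, and 4 of 10 held an 8mer against 3.35%. The difference between these counts is COL6A2, whose match lies in the canonical isoform (ENST00000300527) but not in the isoform with the longest 3′ UTR. COL12A1 had no match in its 3′ UTR, but its coding sequence held an 8mer, at nucleotide 8274, shown here for comparison.
COL12A1 coding sequence, chr6:75103795-75103802, minus strand: gcaggaggaccTGGTGCTAaagg

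A match in the coding sequence was held by 6 of the 10 genes, against 20.3% of 19384 protein-coding genes and 34.9% of the 4478 with a coding sequence of 2000 to 10000 nt, the lengths among which these long genes lie. Members with such a match had coding sequences of 4020 to 9534 nt and those without 2235 to 4125 nt. The window was not matched to these lengths. The matches are exact letters in a transcript and not bound sites.

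The genes lie at 6 places on the plus strand and 4 on the minus strand of GRCh38. COL6A1 (ENSG00000142156, chr21:45981770-46005050), COL6A2 (ENSG00000142173, chr21:46098112-46132848) and COL18A1 (ENSG00000182871, chr21:45405165-45513720) lie near each other on the plus strand of chromosome 21. COL8A1 (ENSG00000144810, chr3:99638475-99799226), COL15A1 (ENSG00000204291, chr9:98943179-99070792) and COL27A1 (ENSG00000196739, chr9:114155537-114312511) are the other plus-strand genes. COL6A3 (ENSG00000163359, chr2:237324003-237414328), COL7A1 (ENSG00000114270, chr3:48564073-48595329), COL12A1 (ENSG00000111799, chr6:75084326-75206267) and COL16A1 (ENSG00000084636, chr1:31652263-31704319) lie on the minus strand. The exons of COL15A1, COL16A1 and COL18A1 each overlap those of 1 gene on the opposite strand. Per the study's methods the libraries were stranded, and the strand setting used in counting was not checked.

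The libraries held 39919554 to 70027392 reads in genes. All 3 ACHN inhibitor libraries (52369886 to 70027392 reads) were deeper than all 3 ACHN controls (39919554 to 48626762), and the part of depth in the ACHN results was not tested, although counts were scaled to depth. Of 7 renal epithelial markers, 5 (786-O), 6 (A-498) and 5 (ACHN) exceeded 1 CPM (read counts relative to each library's total, TMM-scaled) in every library, PAX8 and PAX2 among them. Their summed level with and without treatment was 1331 against 1186 CPM in 786-O, 2734 to 2831 against 1873 to 2032 CPM in A-498, and 2510 to 2711 against 3025 to 3243 CPM in ACHN. Of 6 fibroblast and stromal markers, none in A-498, 3 in 786-O (PDGFRB, LUM and THY1) and 2 in ACHN (PDGFRB and THY1) exceeded 1 CPM in every library, with DCN at 0 in 786-O. The summed level of the stromal list with and without treatment was 14.7 against 25.7 CPM in 786-O, 1.08 to 1.25 against 2.06 CPM in both A-498 controls, and 170 to 191 against 197 to 221 CPM in ACHN. These sums moved with treatment and their part in the collagen results was not tested. None of the 4 endothelial and none of the 3 leukocyte markers exceeded 1 CPM in every library of a line. In bulk RNA, fewer cells expressing a transcript and less of it per cell cannot be told apart.

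The control libraries of the lines expressed different sets of these collagens. To compare levels between genes, CPM was divided by the length of the canonical transcript in kilobases. The TMM factors of these CPM were set within each line, so levels of different lines were not scaled to each other by TMM. In the 786-O control, COL6A3 led with 58.7 CPM per kilobase, followed by COL6A2 with 40.1, COL18A1 with 35.3 and COL7A1 with 31.6. In the A-498 controls, COL6A2 (mean 36.7 CPM per kilobase) and COL8A1 (36.5) led with overlapping ranges, ahead of COL18A1 (30.8) and COL6A1 (18.6). There COL27A1 (15.8), COL7A1 (14.8) and COL12A1 (14.5) followed, each overlapping the next. In the ACHN controls, COL8A1 led with 37.8 CPM per kilobase, followed by COL18A1 with 26.9, COL6A2 with 12.5 and COL7A1 with 11. COL6A1 (5.39) and COL27A1 (5.28) came next with overlapping ranges, and then COL12A1 (4.67) without overlap. COL16A1 was low in all lines, at 0.688 (786-O), 0.927 (A-498) and 1.44 CPM per kilobase (ACHN), and COL15A1 was the lowest of the 10 in each, at 0.340, 0.0135 and 0.00442. COL6A3, the highest member in 786-O, was near the bottom in A-498, at 0.0575 CPM per kilobase, and in ACHN, at 0.562.

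**Figure D2:**
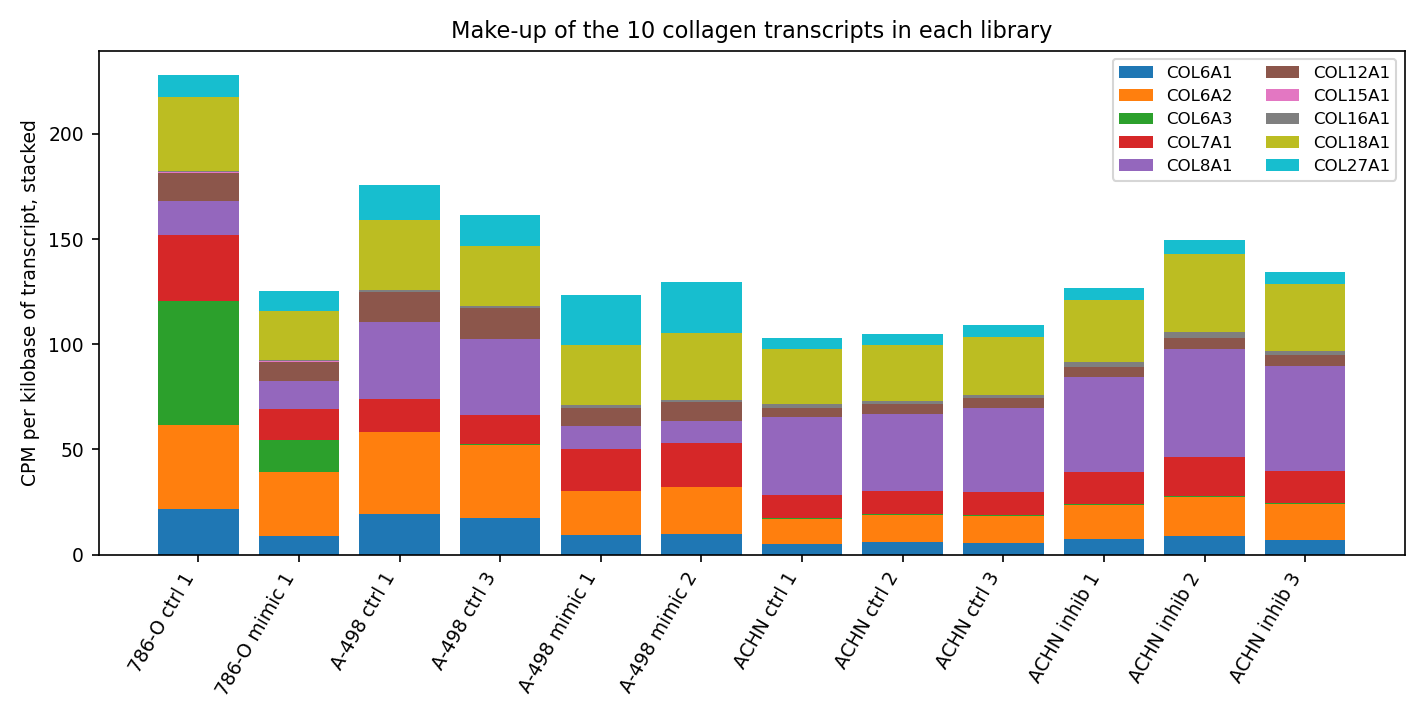
CPM per kilobase of the canonical transcript, stacked over the 10 collagen genes, in each of the 12 libraries (ctrl, control; inhib, inhibitor). TMM factors were set within each line. The stacks fall from 228 to 125 in 786-O and from 162 to 176 down to 124 to 130 in A-498, and stand at 103 to 109 in ACHN controls and 127 to 150 with the inhibitor.

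The difference between the control libraries of A-498 and ACHN was tested with edgeR's quasi-likelihood test, with p-values adjusted over all genes by the Benjamini-Hochberg method and called under 0.05. All 9 members that passed the filter on low counts were called, 6 higher and 3 lower in A-498, where 79.8% of all 19689 genes were called (41.0% higher and 38.7% lower). COL6A1 was higher in A-498 by 1.73 on the log2 scale (SE 0.0643, edgeR adjusted p = 1.26e-15), COL12A1 by 1.58, COL27A1 by 1.53, COL6A2 by 1.5, COL7A1 by 0.38 and COL18A1 by 0.14. COL6A3 was lower in A-498 by a log2 difference of -3.32 (SE 0.176, edgeR adjusted p = 5.23e-13), COL16A1 by -0.69 and COL8A1 by -0.10. The calls of COL8A1 (edgeR adjusted p = 0.0239) and COL18A1 (0.0131) were lost when control replicate 1 of A-498 was left out (0.0615 and 0.480). COL8A1 was also lost without ACHN control replicate 3 (0.103) and COL18A1 without ACHN control replicate 2 (0.141). Line, control oligonucleotide and library batch cannot be told apart in this comparison.

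The mimic comparison asked which of these transcripts were lower when miR-29 activity was added. In A-498, the mimic lowered COL6A1, COL6A2, COL8A1 and COL12A1 and raised COL7A1, COL16A1 and COL27A1, while COL18A1 was not called. These are the 8 genes with at least 100 counts in every A-498 library, 4 lower and 3 higher, with a median log2 fold change of -0.38. The other two members, COL6A3 and COL15A1, passed the filter on low counts only through the group in which each was high, so that they had to differ, and they are given below by their counts. Among all 19676 genes tested in A-498, 27.0% were called lower and 25.5% higher. With library size alone in place of TMM, these shares were 22.1% and 31.5%, and the members' calls were the same in number. The mimic and control values did not overlap for the 4 lower members (37.3% of all genes did so in that direction) and for the 3 higher members (37.2%), 7 of the 8 in all (74.5%). The median log2 fold change over all genes was 0.005.

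In 786-O, with 1 library a group and no test, 9 of the 10 genes had a log2 ratio of mimic to control under 0, where 51.0% of 20370 genes did and 49.0% had a ratio over 0. COL6A1, COL6A3 and COL7A1 were lower by 2-fold or more, as were 8.96% of all genes, and none was higher by 2-fold, as 6.73% of all genes were. The median log2 ratio of the 10 genes was -0.60, against -0.006 over all genes. With 2 libraries in all, nothing here checks the spread between replicates.

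The inhibitor comparison in ACHN asked the reverse question. The inhibitor raised 8 of the 9 genes tested, where 17.3% of all 17904 genes were called higher, 14.4% lower and 31.7% in either direction. It lowered none of them at an adjusted p under 0.05 by edgeR, none by DESeq2 and none at an unadjusted p under 0.05 by either tool. COL6A3 was not called, and COL15A1 was too low to be tested. In all 9 the inhibitor libraries lay above every control, where 22.8% of all genes did so and 43.5% had no overlap in either direction. The median log2 fold change of the 9 genes was 0.36, against 0.004 over all genes. COL6A1, COL6A2, COL8A1 and COL12A1 were lower with the mimic in A-498 and higher with the inhibitor in ACHN, as were 10.5% of the 16708 genes tested in both lines. The ACHN call of COL12A1 depended on single libraries, as given below. COL7A1, COL16A1 and COL27A1 went against this pattern, being raised both by the mimic (A-498) and by the inhibitor (ACHN), as were 2.80% of all genes. The A-498 call of COL16A1 depended on the tool and on 1 library, as given below.

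**Figure D3:**
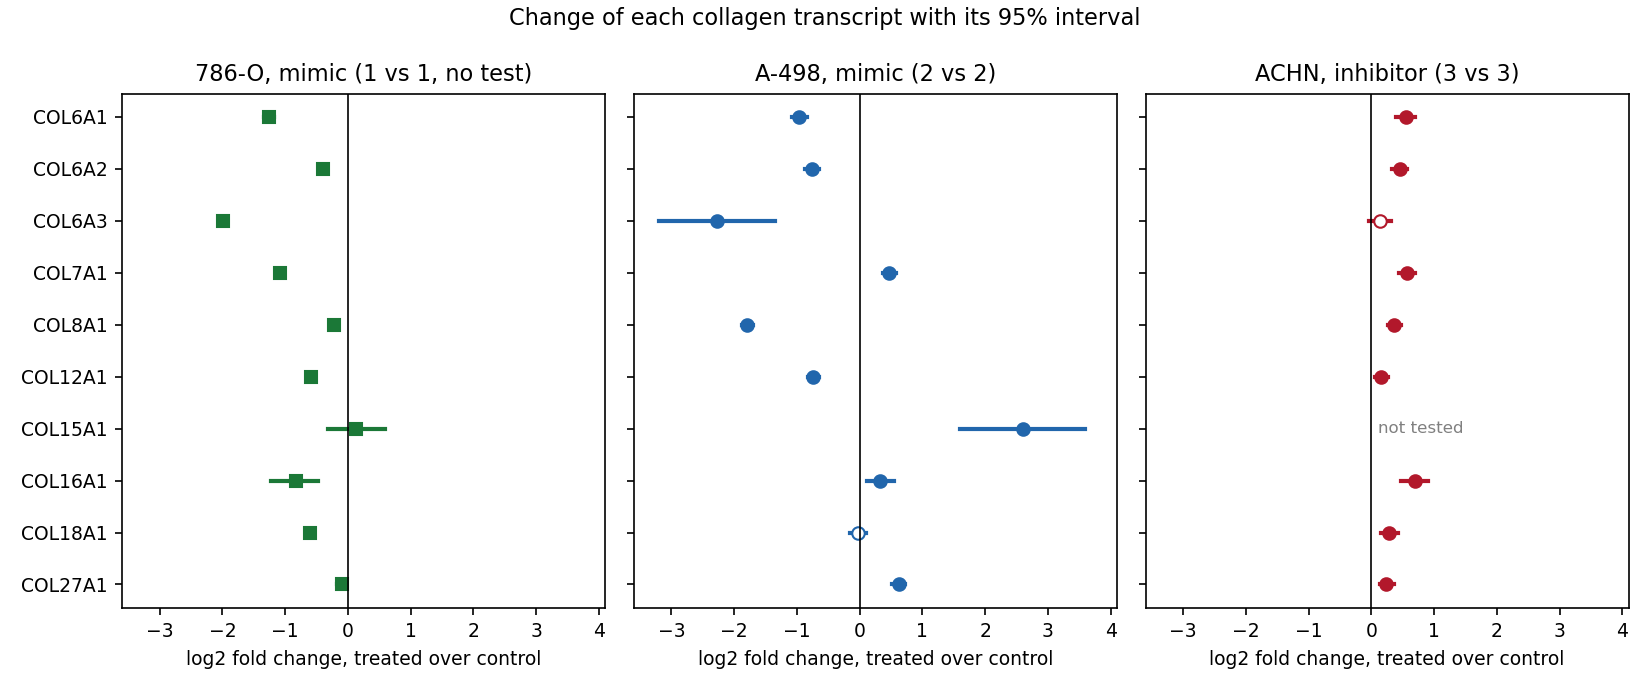
Log2 fold change of each collagen transcript, treated over control, in the 3 lines. Filled circles are called at an edgeR adjusted p under 0.05 and open circles are not, with bars for the 95% interval of the model. Squares for 786-O have bars for counting error only and no test. COL7A1, COL15A1, COL16A1 and COL27A1 lie to the right of 0 in A-498, where COL6A3 and COL15A1 passed the filter on low counts through 1 group only. In A-498 COL6A3 and COL15A1 are drawn filled with model intervals, but they had to differ and their fill is not to be read as a test.

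Collagen VI is taken first. COL6A1, the alpha 1 chain, stood at 91.2 CPM in the 786-O control and 38.1 CPM with the mimic. In A-498 it was at 82.1 and 73.9 CPM in the controls and at 39.2 and 41.0 CPM with the mimic. In ACHN the controls had 21.2, 24.4 and 22.4 CPM and the inhibitor libraries 31.6, 37.7 and 30.1 CPM. The mimic libraries lay below and the inhibitor libraries above all their controls. The log2 ratio in 786-O was -1.26 (95% interval for counting error -1.34 to -1.18). The log2 fold change in A-498 was -0.96 (SE 0.0561, edgeR adjusted p = 3.91e-09). In ACHN it was 0.55 (SE 0.0739, edgeR adjusted p = 1.56e-05).

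COL6A2, the alpha 2 chain, followed the same directions with smaller sizes. It stood at 138 CPM in the 786-O control and 105 CPM with the mimic, a log2 ratio of -0.40 (-0.46 to -0.35). In A-498 it was at 134 and 120 CPM in the controls and 72.3 and 77.6 CPM with the mimic. The ACHN controls had 41.2, 44.3 and 44.1 CPM and the inhibitor libraries 54.7, 63.8 and 58.0 CPM. The groups did not overlap in either replicated line. By edgeR the mimic changed it by -0.76 on the log2 scale in A-498 (SE 0.0544, adjusted p = 3.62e-08). The inhibitor changed it by 0.45 (SE 0.0538, adjusted p = 4.38e-06).

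COL6A3, the longest of the 3 chains, had the largest spread of levels between lines. In 786-O it went from 618 CPM (27519 counts) in the control to 156 CPM (6961 counts) in the mimic library, a log2 ratio of -1.99 (-2.03 to -1.95) without a test. In A-498 it was barely detected, with 24 and 45 counts in the controls (0.445 and 0.765 CPM) and 10 and 5 counts with the mimic (0.159 and 0.0871 CPM). The CPM ratio of the summed counts (15 against 69) was 0.203 (95% interval for counting error 0.108 to 0.359). It passed the filter only through the control libraries, so no test is given. In ACHN the controls had 5.63, 6.15 and 5.97 CPM and the inhibitor libraries 6.39, 6.31 and 6.81 CPM. The 3 inhibitor libraries lay just above the controls, but the log2 fold change of 0.14 did not pass the test (95% interval -0.04 to 0.32, edgeR adjusted p = 0.245).

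**Figure D4:**
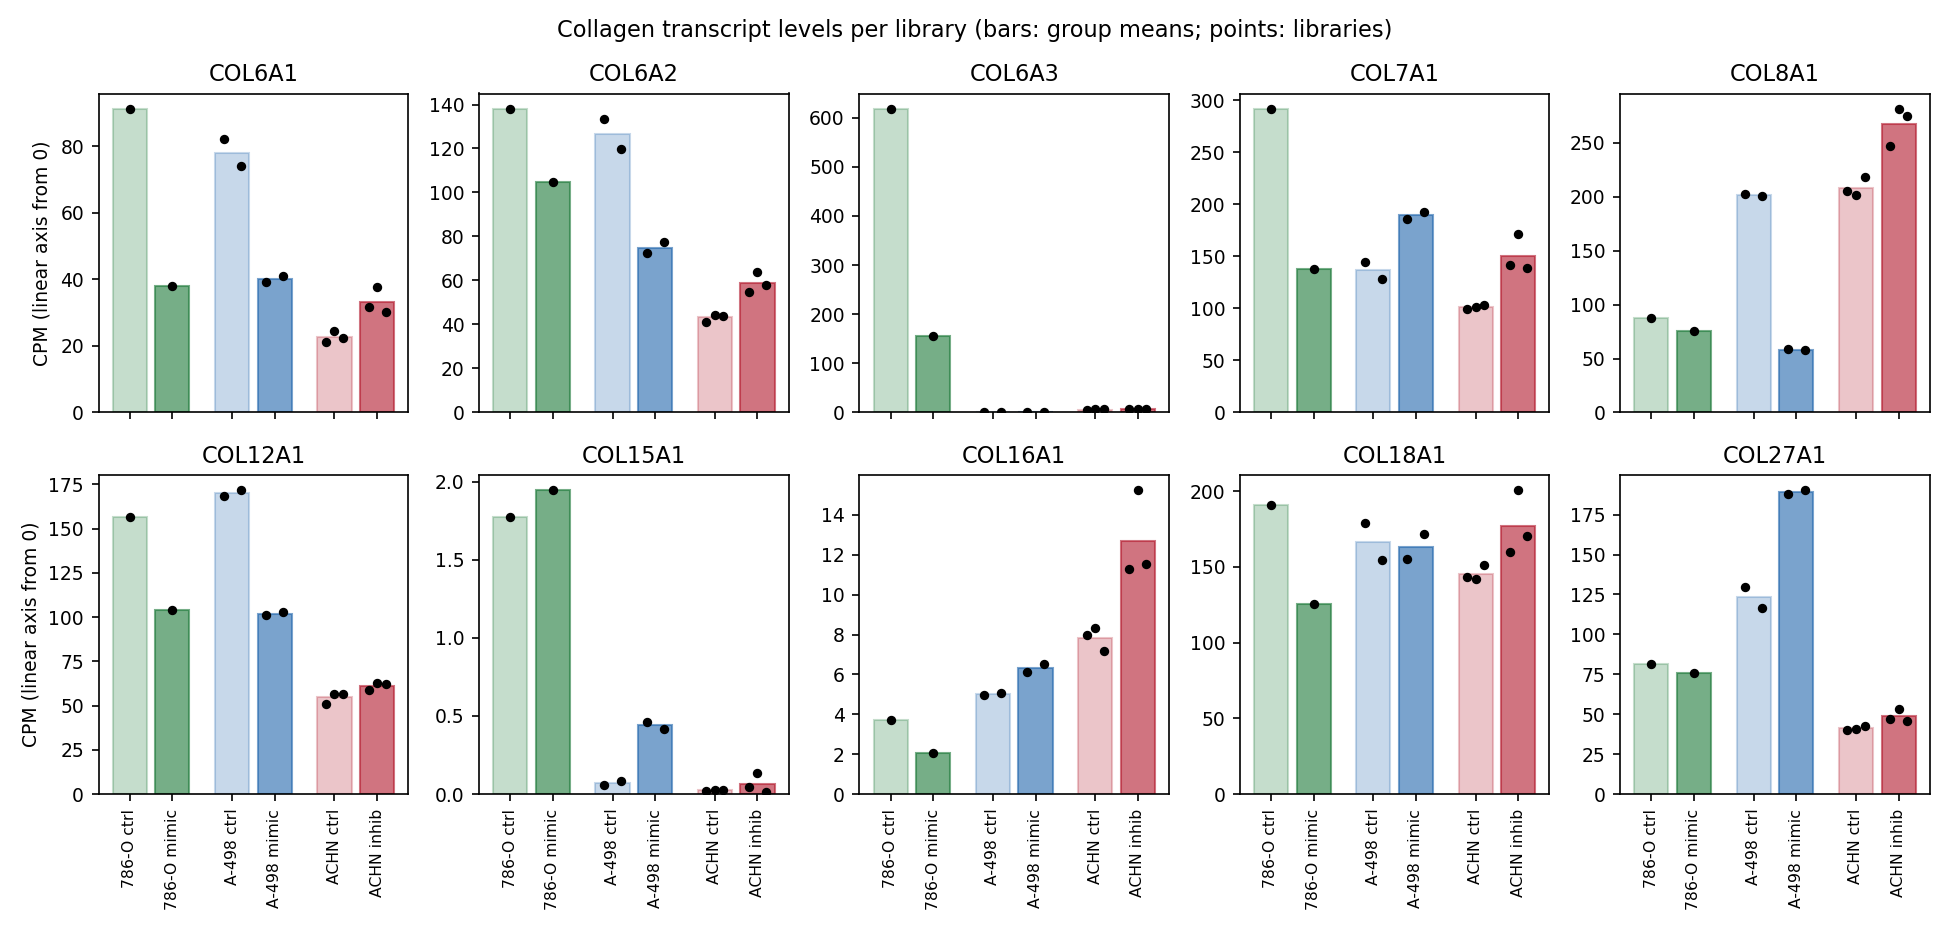
CPM of each collagen transcript in the 12 libraries, on linear axes that start at 0 and differ between panels (ctrl, control; inhib, inhibitor). Points are libraries and bars group means, with TMM factors set within each line. COL6A3 stands at 618 CPM in the 786-O control, and at 6.81 CPM or less in every A-498 and ACHN library.

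Because the 3 chains enter the same protein, their ratios per length were computed in each library. COL6A2 was above COL6A1 in all 12 libraries. The log2 ratio of COL6A2 to COL6A1 was 0.89 in the 786-O control and 1.74 with the mimic. In A-498 it was 0.99 ± 0.00461 (SD, n = 2) in controls and 1.19 ± 0.026 (SD, n = 2) with the mimic, with no overlap. The exact permutation test (two-sided) gave p = 0.333, the smallest p that 2 libraries against 2 allow. In ACHN it was 1.22 ± 0.0622 (SD, n = 3) in controls and 1.12 ± 0.1 (SD, n = 3) with the inhibitor, and the groups overlapped (exact permutation p = 0.2, two-sided, where the smallest possible is 0.1).

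The COL6A3 to COL6A1 ratio differed far more between lines than with treatment. In 786-O, COL6A3 exceeded COL6A1 per length by 2.70 times in the control and 1.63 times with the mimic. In A-498 the ratio was 0.00216 and 0.00413 in the controls and 0.00162 and 0.000849 with the mimic. In ACHN it was 0.106, 0.101 and 0.106 in controls and 0.0806, 0.0668 and 0.0904 with the inhibitor. The 3 inhibitor values lay below all controls, a log2 difference of -0.41 that had the smallest p this design allows (exact permutation p = 0.1, two-sided). With exon union lengths in place of the canonical transcript, an alternative chosen after seeing the data, the COL6A3 to COL6A1 ratio in 786-O was 1.74 in the control and 1.05 with the mimic. The differences on the log2 scale within a line do not depend on the length used.

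**Figure D5:**
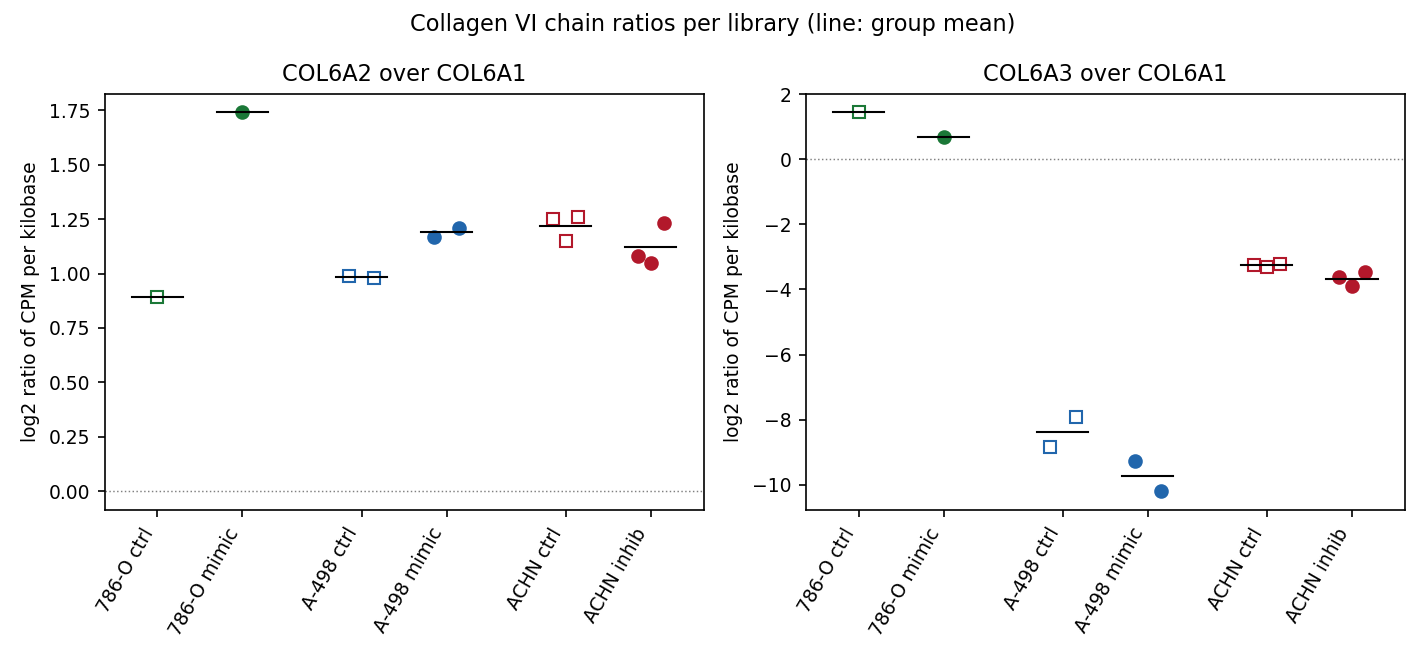
Log2 ratio of CPM per kilobase of COL6A2 over COL6A1 (left) and of COL6A3 over COL6A1 (right) in each library, with a line at each group mean. In the right panel 786-O lies above 0, ACHN between -3.23 and -3.90, and A-498 between -7.92 and -10.2.

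COL8A1, the network-forming short-chain collagen, had the largest fall among the well-counted members in A-498. Its level there was 202 and 200 CPM in the controls and 58.8 and 57.7 CPM with the mimic. This was a log2 fold change of -1.79 (SE 0.0401, edgeR adjusted p = 2.74e-13). In 786-O it was at 87.5 CPM in the control and 75.2 CPM with the mimic, a log2 ratio of -0.22 (-0.28 to -0.15). In ACHN it rose from 205, 202 and 219 CPM to 247, 282 and 275 CPM, a log2 fold change of 0.36 (SE 0.0502, edgeR adjusted p = 2.07e-05). It was the highest of the 10 genes per length in all 6 ACHN libraries.

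COL7A1, the anchoring fibril collagen, was lower in the 786-O mimic library but raised by it in A-498. In 786-O it went from 292 CPM in the control to 138 CPM with the mimic, a log2 ratio of -1.08 (-1.13 to -1.04). In A-498 it rose from 144 and 129 CPM to 186 and 193 CPM, with a log2 fold change of 0.47 (SE 0.0495, edgeR adjusted p = 1.77e-06). The mimic libraries of A-498 were both above both controls, whereas the 786-O mimic library was below its control. In ACHN it rose from 99.6, 101 and 103 CPM to 142, 171 and 139 CPM, a log2 fold change of 0.57 (SE 0.0631, edgeR adjusted p = 1.54e-06). Its 3′ UTR holds the 8mer and the 7mer-m8 shown above.

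Of the FACIT collagens, COL12A1 was lower with the mimic and COL16A1 was split between lines. COL12A1 stood at 157 CPM in the 786-O control and 104 CPM with the mimic, a log2 ratio of -0.59 (-0.64 to -0.54). In A-498 it fell from 168 and 172 CPM to 101 and 103 CPM, a log2 fold change of -0.74 (SE 0.0388, edgeR adjusted p = 1.35e-09). In ACHN the controls had 50.9, 56.6 and 56.6 CPM and the inhibitor libraries 59.0, 62.7 and 62.2 CPM. This rise was small, 0.16 on the log2 scale (SE 0.0484, edgeR adjusted p = 0.0135). It was not called when ACHN control replicate 1 (edgeR adjusted p = 0.158) or inhibitor replicate 3 (0.0564) was left out. COL12A1 holds no seed match in the 3′ UTR.

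COL16A1 was at 3.73 CPM (166 counts) in the 786-O control and 2.08 CPM (93 counts) with the mimic, a log2 ratio of -0.83 (-1.23 to -0.47). In A-498 it was at 4.99 and 5.05 CPM in the controls and 6.13 and 6.52 CPM with the mimic. The log2 fold change of 0.33 (SE 0.0966, edgeR adjusted p = 0.0103) was not called by DESeq2 (adjusted p = 0.107) or without mimic replicate 2 (edgeR adjusted p = 0.0821). In ACHN it had the largest fold among the 9 members tested, from 7.97, 8.33 and 7.17 CPM to 11.3, 15.2 and 11.5 CPM. The change was 0.69 on the log2 scale (SE 0.104, edgeR adjusted p = 4.95e-05).

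The multiplexins differed from each other in level and in response. COL18A1 was abundant in every line. It stood at 191 CPM in the 786-O control and 125 CPM with the mimic, a log2 ratio of -0.61 (-0.66 to -0.56). In A-498 it had 179 and 154 CPM in the controls and 155 and 172 CPM with the mimic. The groups overlapped, with a log2 fold change of -0.03 (95% interval -0.16 to 0.10, edgeR adjusted p = 0.728), and it was not called. Leaving out control replicate 3 gave a log2 fold change of -0.15 that was called (edgeR adjusted p = 0.00113). In ACHN it rose from 143, 142 and 151 CPM to 160, 201 and 171 CPM, a log2 fold change of 0.28 (SE 0.0635, edgeR adjusted p = 0.00213). Its 3′ UTR holds no seed match of the kinds searched.

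COL15A1 was at or near the detection limit outside 786-O. In 786-O it had 79 counts in the control and 87 with the mimic (1.77 and 1.94 CPM), and the log2 ratio of 0.13 had a counting interval that included 0 (-0.32 to 0.59). In A-498 it had 3 and 5 counts in the controls and 29 and 24 counts with the mimic, and the CPM ratio of the summed counts (53 against 8) was 6.2 (95% interval for counting error 2.93 to 15.1). It passed the filter only through the mimic libraries, so no test is given. In ACHN each control had 1 count and the inhibitor libraries 3, 7 and 1, a ratio of 2.60 with an interval from 0.687 to 14.5, and no difference was detectable at this depth. Its 3′ UTR holds an 8mer.

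COL27A1 was nearly level in 786-O, at 81.4 CPM in the control and 75.9 CPM with the mimic, a log2 ratio of -0.10 (-0.17 to -0.03). In A-498 it rose from 130 and 117 CPM to 188 and 190 CPM, a log2 fold change of 0.62 (SE 0.047, edgeR adjusted p = 6.63e-08). With COL7A1 it was the most strongly raised of the well-counted members in that line. In ACHN it rose from 40.1, 40.9 and 42.7 CPM to 47.3, 53.2 and 46.0 CPM, a log2 fold change of 0.24 (SE 0.054, edgeR adjusted p = 0.00191). Within ACHN, inhibitor replicate 2 had the highest CPM of the 3 inhibitor libraries for every member except COL6A3, for which it had the lowest.

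The difference in mimic effect between A-498 and 786-O was tested by the line by mimic term of edgeR over the 6 libraries of these lines, with the spread taken from A-498 alone. The test thus assumes that the 786-O libraries, 1 a group, vary like those of A-498, which no library here can check. Under that assumption 8 of the 10 genes were called, where 29.6% of 22587 genes were. The effect was more positive in A-498 for 5 of them (all genes, 13.2%) and more negative for 3 (16.5%). With library size alone, the members were 6 and 2 (all genes, 17.4% and 12.4%). COL7A1 differed by 1.51 (SE 0.0843, edgeR adjusted p = 6.53e-11), COL15A1 by 2.42, COL16A1 by 1.13, COL27A1 by 0.67 and COL18A1 by 0.53. The COL15A1 difference rests on few counts in A-498, 3 and 5 in the controls and 29 and 24 with the mimic. COL8A1 differed by -1.62 (SE 0.0745, edgeR adjusted p = 3.42e-12), COL6A2 by -0.40 and COL12A1 by -0.19. The COL12A1 call (edgeR adjusted p = 0.0454) was lost with library size alone (0.349), with the spread shared by all 12 libraries (0.139) and without A-498 control replicate 3 (0.276), mimic replicate 1 (0.6) or mimic replicate 2 (0.194). That of COL6A2 was lost without A-498 mimic replicate 1 (0.0803). The effects on COL6A1 (0.25, 95% interval 0.05 to 0.46, edgeR adjusted p = 0.0581) and COL6A3 (-0.33, 95% interval -1.11 to 0.45, edgeR adjusted p = 0.566) were not called different. With the biological coefficient of variation, the spread between replicates beyond counting error, fixed at 0.2 in place of the estimate from A-498, edgeR called 0 of the 10 genes, with 4 at an unadjusted p under 0.05 and a smallest adjusted p of 0.0622.

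The make-up of this collagen group shifted within lines. The 3 collagen VI chains together held 52.8% of the summed CPM per kilobase of the 10 genes in the 786-O control and 43.3% with the mimic. In A-498 they held 33.2% and 32.4% in the controls and 24.5% and 24.9% with the mimic. In ACHN they held 17.0 to 18.4% in controls and 18.3 to 18.9% with the inhibitor, with overlapping ranges. The COL8A1 share in A-498 was 20.9% and 22.5% in the controls and 8.62% and 8.07% with the mimic. Over the same libraries the COL27A1 share was 9.46% and 9.24% in controls and 19.4% and 18.8% with the mimic, and that of COL7A1 was 8.90% and 8.62% in controls and 16.3% and 16.1% with the mimic. The highest member per length changed from COL6A3 to COL6A2 in 786-O, and from COL6A2 or COL8A1 to COL18A1 in A-498.

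Seed matches were set beside the responses. In A-498, the members with a match to nucleotides 2 to 8 in the 3′ UTR included COL6A2 and COL8A1, which were lower, and COL7A1, COL16A1 and COL27A1, which were higher. COL6A3 and COL15A1, also with a match, were at few counts there. Of the 3 members without such a match, COL6A1 (a 7mer-A1 only) and COL12A1 were lower and COL18A1 was not called. An 8mer was held both by COL8A1, at a log2 fold change of -1.79, and by COL7A1, at 0.47. In 786-O, among members with such a match, COL6A3 was at -1.99, COL7A1 with both its matches at -1.08 and COL16A1 at -0.83. COL6A2 was at -0.40, COL8A1 at -0.22, COL27A1, with a 7mer-m8 and a 7mer-A1, at -0.10, and COL15A1 at 0.13. Of the members without such a match, COL6A1 was at -1.26, COL18A1 at -0.61 and COL12A1 at -0.59 in that line. In ACHN, the members with such a match that were called higher were COL16A1 (0.69), COL7A1 (0.57), COL6A2 (0.45), COL8A1 (0.36) and COL27A1 (0.24). COL6A3 (0.14), also with a match, was not called, and COL15A1 was not tested. COL6A1 (0.55), COL18A1 (0.28) and COL12A1 (0.16), without such a match, were called higher there.

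Other collagen genes and their partners were counted from lists, to be read against all genes (27.0% lower and 25.5% higher in A-498, 14.4% lower and 17.3% higher in ACHN, 8.96% lower by 2-fold in 786-O). Of the fibrillar collagens, 4 of 6 tested were lower and 1 higher in A-498 (median log2 fold change -1.0), and 0 were lower and 2 of 4 higher in ACHN. COL5A3 (-1.99) was the largest fall and COL11A2 (0.88) the rise in A-498, and COL1A1 (2.48) was the largest rise in ACHN. Of the 6 collagen IV genes, which form the basement membrane network, 5 were lower and 1 higher in A-498 (median -1.30), led by COL4A4 (-2.72) and COL4A6 (0.71), and 4 were higher in ACHN, led by COL4A1 (1.59). Of 10 further collagens tested in A-498, 4 were lower, led by COL14A1 (-1.23), and COL25A1 was higher (1.25, SE 0.375, edgeR adjusted p = 0.0118). The rise of COL4A6 had an SE of 0.234 (edgeR adjusted p = 0.02). Whether the named list genes passed the filter on low counts through 1 group only was not checked. In ACHN 2 of 5 further collagens were higher, led by COL13A1 (1.22). In 786-O, 3 of 5 fibrillar and 3 of 6 collagen IV genes were lower by 2-fold or more.

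Collagen-modifying enzymes hydroxylate, glycosylate and fold the chains before secretion. In A-498, 12 of 15 were lower (all genes, 27.0%) and 1, COLGALT2 (1.45), was higher (all genes, 25.5%), with a median log2 fold change of -0.78. SERPINH1, the collagen chaperone HSP47, had the largest fall, -1.89 (SE 0.0396, edgeR adjusted p = 1.54e-13). In ACHN, 8 of 15 were higher (all genes, 17.3%), led by SERPINH1 at 0.95 (SE 0.0468, edgeR adjusted p = 3.59e-11), and P3H3 (-0.22) was lower. In 786-O, 3 of the 15 were lower and 1 was higher by 2-fold or more. Of the receptors and partners, integrins, discoidin receptors and processing proteases among them, 9 of 16 were lower and 3 higher in A-498, with ITGB1 at -1.70 and DDR2 at 1.75. In ACHN, 12 of 15 were higher, led by the collagen-binding integrin subunit ITGA11 (2.09), and in 786-O 5 of 15 were lower by 2-fold or more.

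Likeness between patterns was described by Pearson's r of log2 CPM with 0.5 CPM added, centred on each line's mean, over the 12 libraries. The libraries share treatment and line, so these values describe the pattern and carry no test. Among 9337 genes, those most like COL6A1 were RMDN3, BMP1 and EVC (each r = 0.991), those most like COL6A2 were PLXNA1 (0.992), SEPTIN8 (0.988) and CHFR (0.987), and those most like COL6A3 were LIMS1 (0.992), RNF138 (0.985) and ELF1 (0.983). Between members, r was highest for COL7A1 with COL16A1 (0.94), COL6A1 with COL6A2 (0.93) and COL6A1 with COL12A1 (0.93), and lowest for COL8A1 with COL15A1 (-0.86), COL12A1 with COL15A1 (-0.78) and COL8A1 with COL27A1 (-0.71). In the A-498 and ACHN libraries COL15A1 had at most 29 counts (0.46 CPM), less than the 0.5 CPM added. The r values of COL15A1 therefore rest on counts near the detection limit. COL6A3 had 5 to 45 counts in the A-498 libraries (0.0871 to 0.765 CPM), around the 0.5 CPM added, and was not called in ACHN. Its largest difference lay between the 2 libraries of 786-O, 618 CPM in the control and 156 CPM with the mimic. The r values of COL6A3 therefore rest mostly on that unreplicated line.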

How the data were processed

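Stranded, rRNA-depleted libraries were sequenced from 12 transfected cultures, with groups taken from the labels. The authors aligned paired reads to GRCh38 with HISAT2 and deposited raw counts per Ensembl v87 gene from HTSeq in its strict intersection mode. The 5 summary lines of each table, reads not assigned to a gene, were 37.2% to 48.0% of reads and were left out. Symbols came from GENCODE v44 for 56948 of 58051 genes. The 3 tables of the authors' own DESeq2 comparisons (fold changes and p-values) were not used.

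Counts were tested within each line by the edgeR 4.0.16 quasi-likelihood test (R 4.3.3, TMM, filterByExpr by group, Benjamini-Hochberg over all genes, 0.05), checked on simulated data. The simulated counts gave every gene and line the same spread and changed only well-counted genes. The check therefore does not cover low-count members or the unmeasured spread of 786-O. DESeq2 1.42.0, library size scaling, other filters and prior counts, a stricter threshold, a replicate block and leaving out each library were alternatives. For 786-O, log2 CPM ratios used prior count 2 and at least 10 counts in both libraries together, with exact conditional binomial intervals. These intervals, and those of the ratios of summed counts, cover counting error only, while the edgeR intervals include the spread between replicates. No molecular identifiers were described. Replicates varied by 3.83% (A-498) and 5.25% (ACHN) beyond counting error, as edgeR's biological coefficient of variation.

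The members and the lists were chosen with earlier results of these data known. All 10 members were named in every comparison. From each list the called gene with the largest change in each direction was named, and for likeness the 3 genes with the highest r to each collagen VI chain. The renal epithelial list was shortened by 1 marker, which is not reported here.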

Additional observations from a re-analysis of the deposited data

Results flagged for a closer look

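For 8 of the 10 genes the mimic effect was called different between A-498 and 786-O in the interaction test of edgeR, as for 29.6% of all genes. The difference of the log2 effects, A-498 minus 786-O, was -0.40 for COL6A2 (adjusted p = 0.00192), 1.51 for COL7A1 (6.53e-11), -1.62 for COL8A1 (3.42e-12) and -0.19 for COL12A1 (0.0454). It was 1.13 for COL16A1 (edgeR adjusted p = 0.000461), 0.53 for COL18A1 (0.000403) and 0.67 for COL27A1 (4.16e-06). COL15A1, also among the 8, was at 2.42. Its value rests on 3 and 5 counts in the A-498 controls and 29 and 24 with the mimic, so no p-value is given. COL7A1, COL16A1 and COL27A1 had opposite signs in the lines, lower in the 786-O mimic library and higher in both A-498 mimic libraries. Of these, COL27A1 was nearly level in 786-O, at a log2 ratio of -0.10. The COL16A1 rise in A-498 was not called by DESeq2 (adjusted p = 0.107). The 786-O groups hold 1 library each, so their spread was not measured and the test used that of A-498. With a biological coefficient of variation of 0.2 edgeR called 0 of the 10, with 4 at an unadjusted p under 0.05. The call of COL12A1 was also lost under 5 other alternatives and that of COL6A2 under 1.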

How the results depend on the processing

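Across the alternatives, 346 values of single genes kept their direction and their side of the threshold, while 24 lost a call, 5 gained a call and 5 changed sign. Of the counts and ratios, 143 held, meaning within 1.5 times for a count and within 1 SD between replicates for a ratio, and 4 moved. The COL6A3 to COL6A1 difference in A-498, -1.35 on the log2 scale, was -1.82 to -0.89 with 1 library left out. With a biological coefficient of variation of 0.2 in place of the estimate, the interaction calls were 0 in either direction, 0 lower and 0 higher, and leaving out 1 library at a time gave 1 to 3 members with a more negative effect in A-498. The call of 1 came without mimic replicate 1, where COL6A2 was lost (edgeR adjusted p = 0.0803) and COL12A1 too (0.6). The log2 fold change of COL18A1 in A-498 reversed to 0.05 with library size alone and to 0.07 without control replicate 1 and 0.04 without mimic replicate 1, and ranged from -0.15 to 0.07 over the libraries left out. The interaction of COL6A3 reversed to 0.21 without A-498 control replicate 3 and 0.01 without mimic replicate 2, with a lowest value of -0.75 without mimic replicate 1. The causes were not tested. The interaction of COL6A1 was called with library size alone (edgeR adjusted p = 0.0095) and without A-498 control replicate 1 (0.00021), control replicate 3 (0.00553) or mimic replicate 1 (0.0183). At an adjusted p under 0.01, COL16A1 in A-498 and COL12A1 in ACHN were not called. In ACHN the replicate numbers gave same-number correlations of deviations of 0.398, -0.145 and -0.0183, and control replicate 3 correlated best with inhibitor replicate 2 (0.327), so the numbers were not taken to pair the libraries. With the replicate block, 8 members were higher and 0 lower, and over all genes 3125 were higher and 2638 lower, against 3102 and 2578 without it. No paired analysis was possible in A-498 because its groups share only replicate number 1. The counts of COL6A3 in A-498 and of COL15A1 outside 786-O limit what can be said of them.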
